A study of Mus musculus with 105 samples.

Results

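Liver tumours of SKO mice were compared with the non-tumour liver of SKO mice across all measured genes. SKO mice are labelled Shp2 KO, and the targeted gene is Ptpn11, whose loss the title of the study places in hepatocytes. The libraries were chosen by their labels alone: 4 from SKO tumours and 4 from SKO non-tumour liver, all at 8 months, out of 105 in the series. Every group used here was treated with diethylnitrosamine (DEN), a carcinogen that hepatocytes activate. The reference groups, from the same sequencing group, were wild-type (WT) and IKO mice (labelled Ikk KO), each with 4 tumour and 4 non-tumour libraries at 8 months, and 12 SKO liver libraries at 1, 3 and 5 months. The labels used here name neither the promoter of a Cre transgene nor the sex of the mice. They number biological replicates without saying that each came from a separate animal, so p-values measure the spread between these libraries. Of 12966 genes in the table, 11828 averaged at least 5 normalised reads over the sequencing group and were tested.

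SHP2 is a phosphatase that relays signals from growth factor receptors to the RAS and ERK kinases, and active ERK induces its own inhibitors, the dual-specificity phosphatases and the SPRED and Sprouty proteins. Hepatocytes differ by position in the lobule: those around the central vein, under WNT signalling, make glutamine synthetase and many cytochromes P450, and those around the portal vein carry most of the urea cycle and gluconeogenesis. Hepatocellular tumours often return to a fetal programme with alpha-fetoprotein and glypican 3 and lose the enzymes of the mature lobule. None of these points is a result of the data.

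Levels below are normalised reads, that is reads per library scaled by its size factor, given for replicates 1 to 4 in that order. The method counts the 3′ ends of transcripts, so levels of different genes are not scaled by length. Differences are tumour minus non-tumour on the deposited log2 scale ± SE, with the adjusted p of limma. A gene is called where that p is below 0.05, and "rose" and "fell" are used only of called genes. The deposited transform compresses low values, so that changes of genes with few reads appear smaller than they are.

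The tumour libraries held 4906429 to 5642179 reads and the non-tumour libraries 6918379 to 10863046, so every tumour library was shallower. The targeted gene checked the genotype labels. Ptpn11 (GRCm38, chromosome 5, 121130533 to 121191397) stood at 147, 143, 155 and 172 normalised reads in the tumours and at 129, 110.0, 159 and 145 in non-tumour liver. WT libraries held 357.0 to 432.8, more than every SKO library at 8 months. The difference between SKO tumour and non-tumour liver was 0.17 ± 0.16 (adjusted p = 0.426). The tissue labels were checked on 4 liver tumour markers, Afp, Gpc3, Golm1 and Spink1, and each was higher in every tumour library than in every non-tumour library. Non-tumour libraries 1 and 2 nevertheless stood apart from 3 and 4. The 50 genes that rose most in WT tumours, a choice that used no SKO library, had median levels of 21.2% and 10.7% of the SKO tumour mean in non-tumour libraries 1 and 2, against 3.27% and 3.90% in 3 and 4. The 50 genes that fell most in WT tumours stood at 53.4% and 71.8% of the mean of the other non-tumour libraries in 1 and 2, against 130.3% and 149.1% in 3 and 4. Tumour library 1 kept 13.5% of the level of these genes, the other tumours 3.41% to 8.26%. Whether the libraries held both tissues was not tested, and counts are also given below without non-tumour libraries 1 and 2.

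**Figure D1:**
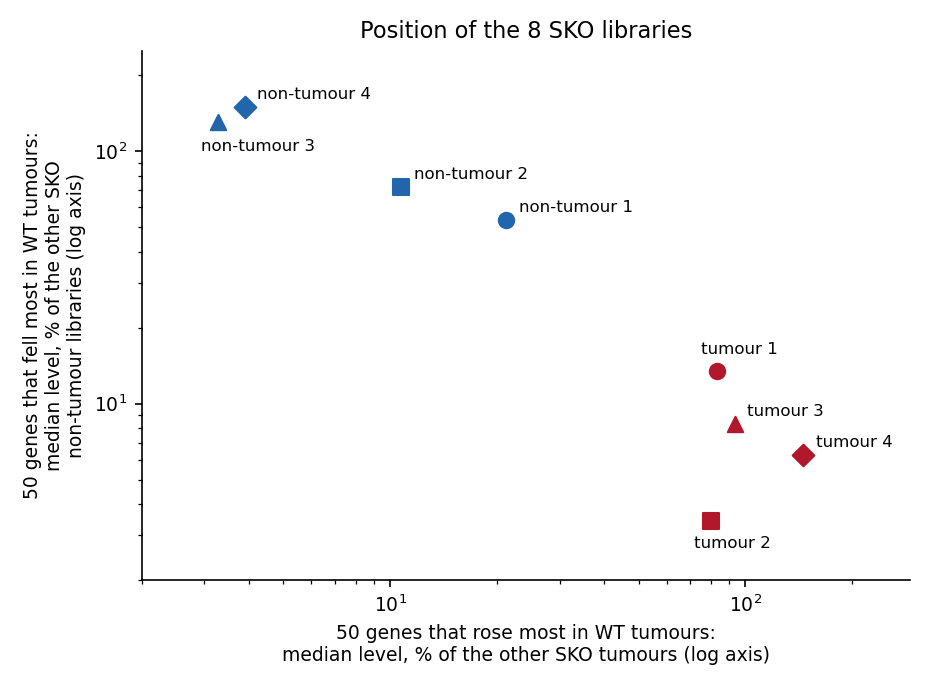
Each point is 1 of the 8 SKO libraries at 8 months, with its replicate number. The x axis gives the median level of the 50 genes that rose most in WT tumours, in % of the mean of the other SKO tumours, and the y axis that of the 50 genes that fell most in WT tumours, in % of the mean of the other SKO non-tumour libraries (both log axes). Tumours lie at the lower right, and non-tumour libraries 1 and 2 lie between them and non-tumour libraries 3 and 4.

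SKO tumours differed from SKO non-tumour liver in 4983 of the 11828 genes tested (42.1%). Of these, 2610 rose (22.1%) and 2373 fell (20.1%). Counts from the gene lists below are to be read against these shares. At least 2-fold changes on the log2 scale were called in 666 genes that rose (5.63%) and 572 that fell (4.84%), and the median over all genes was 0.01. The tumour and non-tumour values did not overlap for 4286 genes (36.2%), called or not. In 941 genes that rose (7.96%) and 804 that fell (6.8%), all 4 tumours lay outside the range of all 16 non-tumour SKO libraries from 1 to 8 months. Without non-tumour libraries 1 and 2, 4006 genes were called, 3835 of them among the 4983 and in the same direction.

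Rises and falls were ranked among called genes whose groups did not overlap, with predicted genes left out. There the largest rise was that of Igfbp1, a secreted protein that binds insulin-like growth factors and is induced by stress and low insulin. It stood at 12012, 36856, 23289.9 and 16779.7 normalised reads in the tumours and at 1828, 1025, 152 and 128 in non-tumour liver. The difference was 5.40 ± 0.65 (adjusted p = 1.45e-09). Lcn2, the iron-siderophore binder lipocalin 2, had 5775, 6042, 11310.3 and 4932 normalised reads against 778, 261, 68.3 and 342, a rise of 4.47 ± 0.70 (adjusted p = 6.68e-07). Apom, a carrier of sphingosine-1-phosphate on lipoproteins, reached 4978, 3689, 3332 and 5877 against 398, 282, 169.5 and 343, with little spread in either group (rise of 3.81 ± 0.36, adjusted p = 3.59e-12). Apoa4, an apolipoprotein of lipid export, reached 11186, 10538, 38495 and 18145 against 2299, 1219.9, 948 and 605 (rise of 3.87 ± 0.53, adjusted p = 4.72e-08). Tumour 3 held the highest Apoa4 and Lcn2 levels. None of these 4 genes overlapped between the groups, which was a condition of the ranking and not a separate result. The steroid reductase gene Akr1c18 rose by 4.30, the tetraspanin gene Tspan8 by 3.74 and Psat1, an enzyme of serine synthesis, by 3.55. For these 3 genes non-tumour libraries 1 and 2 lay above 3 and 4, with 304, 269.9, 4.40 and 10.4 for Akr1c18, and the 4 tumours lay between 1545 and 2564.

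Cyp2a4 and Cyp2b9, cytochromes P450 that are higher in the livers of female mice, were also among the 15 largest rises. Cyp2a4 had 8175, 16272, 7506 and 3674 normalised reads in the tumours and 2607, 746, 17.6 and 80.9 in non-tumour liver. It rose by 4.66 ± 0.78 (adjusted p = 2.65e-06). Cyp2b9 had 2143, 3062, 937 and 3161 against 483, 316, 7.71 and 20.0 and rose by 4.12 ± 0.75 (adjusted p = 1.10e-05). Both have close copies in the mouse genome, Cyp2a5 and Cyp2b13, with which reads may be shared. For Cyp2a4, non-tumour library 1 stood far above 3 and 4 and close to tumour 4.

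The 15 largest rises, from 5.40 to 3.28, were completed by Elapor1 (3.42), a regulator of endosomes and lysosomes, Tstd1 (3.34) and the casein gene Csn3, besides Gpc3, Meg3 and Afp, which are described below. The 15 largest falls ran from −4.40 to −3.56 and were mostly enzymes of the mature hepatocyte. Nat8, an acetyltransferase of detoxification, had 211, 18.9, 63.2 and 78.5 normalised reads in the tumours and 976, 1256, 1975 and 2494 in non-tumour liver (difference −4.01 ± 0.38, adjusted p = 2.74e-12). Aox3, an aldehyde oxidase, and Cyp4a10, a fatty acid hydroxylase induced by PPAR alpha, fell as well (−3.59 and −3.71). The remaining 12, Cyp4a12a, Cyp4a12b, Cyp4a14, Cyp7a1, Cyp8b1, Cyp2c37, Cyp2c50, Cyp2c54, Car3, Csad, Wfdc21 and Snhg11, are taken up with their groups.

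**Figure D2:**
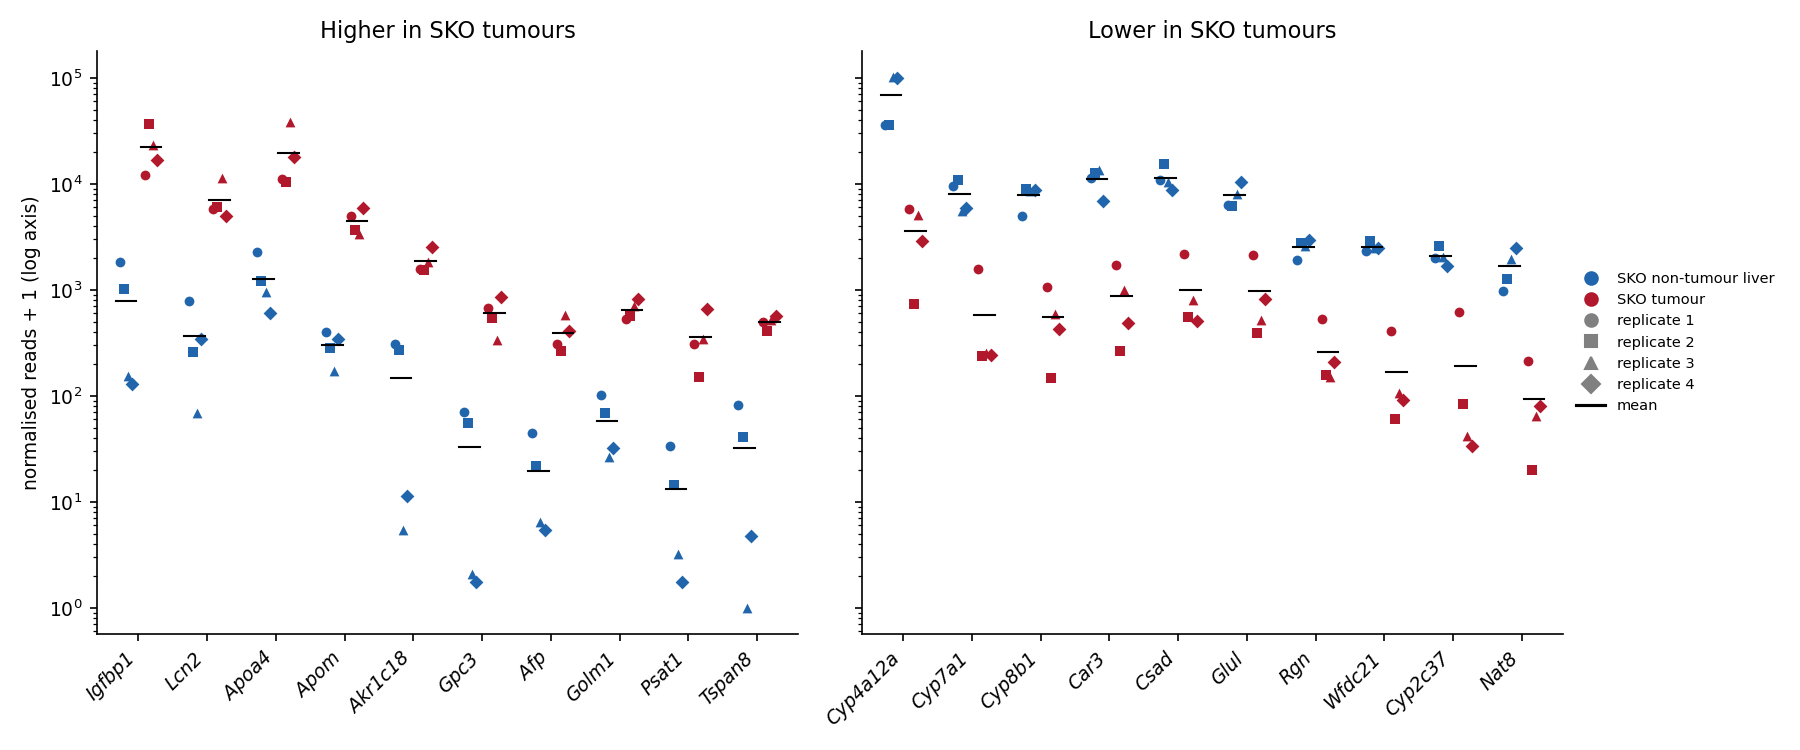
Normalised reads + 1 (log axis) of 10 genes that rose and 10 that fell in SKO tumours, for each of the 4 non-tumour (blue) and 4 tumour (red) libraries; marker shapes give the replicate number and black bars the mean. The colours do not overlap for any of the 20 genes, and for Gpc3 the non-tumour libraries run from 0.742 to 69.4.

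Of 29 tested oncofetal genes and liver tumour markers, 20 rose and 1 fell, with a median difference of 1.75. Afp, the fetal counterpart of albumin, had 304, 266, 582 and 411 normalised reads in the tumours and 43.6, 20.8, 5.50 and 4.45 in non-tumour liver. The rise was 3.42 ± 0.40 (adjusted p = 8.42e-10). Gpc3, a cell surface proteoglycan of fetal liver, went from 69.4, 55.0, 1.10 and 0.742 in non-tumour liver to 673, 543, 332 and 854 in the tumours (rise of 3.90 ± 0.42, adjusted p = 1.21e-10). Golm1, a Golgi membrane protein, rose by 3.14 ± 0.27, and its highest non-tumour value of 100.1 lay below its lowest tumour value of 528. The trypsin inhibitor gene Spink1 stood at 88.9, 39.4, 50.1 and 134 in the tumours and at 1.98, 0, 0 and 1.48 in non-tumour liver, under 2 normalised reads in all 4. The member that fell was the acute phase glycoprotein gene Orm3 (−2.37). Leaving out non-tumour libraries 1 and 2 gave 21 rises, 1 fall and a median of 2.55.

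The imprinted genes of the list did not move together. Meg3, a maternally expressed long RNA, had 1170.3, 213, 1772 and 2913 normalised reads in the tumours and 211, 40.5, 27.5 and 54.2 in non-tumour liver. It rose by 3.63 ± 0.68 (adjusted p = 1.85e-05), with tumour 2 close to non-tumour library 1. H19, another maternally expressed long RNA, had 5713, 224, 1697 and 2104 in the tumours and 5969, 3155, 14.3 and 33.4 in non-tumour liver. The groups overlapped throughout, and the difference of 1.75 ± 1.14 was not called (adjusted p = 0.221). Without non-tumour library 1 it was 2.99 (adjusted p = 0.033), and without libraries 1 and 2 it was 5.02 (adjusted p = 0.000608). Igf2, the fetal growth factor next to H19, stood at 269, 23.6, 14.5 and 21.5 in the tumours and at 268, 39.5, 19.8 and 14.1 in non-tumour liver (difference −0.09, adjusted p = 0.911). Only tumour 1 and non-tumour library 1 exceeded 40 normalised reads of Igf2.

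Alb and Afp lie next to each other on chromosome 5 and both rose, so the 250 bases upstream of their annotated starts are shown (RefSeq, GRCm38.p6, plus strand). Alb is at chr5:90460620-90460869 and Afp at chr5:90490464-90490713. Capitals mark matches on either strand to the TATA box TATAAA or the CCAAT box CCAAT.
Alb: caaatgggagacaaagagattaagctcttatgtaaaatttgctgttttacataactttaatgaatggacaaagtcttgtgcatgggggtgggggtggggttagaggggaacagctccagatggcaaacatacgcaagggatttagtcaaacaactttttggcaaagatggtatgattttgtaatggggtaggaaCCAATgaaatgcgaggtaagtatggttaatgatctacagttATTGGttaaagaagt
Afp: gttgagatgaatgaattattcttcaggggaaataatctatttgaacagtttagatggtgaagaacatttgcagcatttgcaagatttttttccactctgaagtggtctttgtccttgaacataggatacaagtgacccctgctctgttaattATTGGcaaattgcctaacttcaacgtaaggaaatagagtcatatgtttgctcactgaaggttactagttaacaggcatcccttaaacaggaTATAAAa
The Afp window holds a TATAAA close to its end and a CCAAT in reverse, and the Alb window holds a CCAAT in each orientation. Over 9380 tested genes with such a window, 6.74% held TATAAA and 36.1% held CCAAT. Of 530 windows of genes called at least 2-fold higher the shares were 8.11% and 38.3%, and of 436 windows of genes called at least 2-fold lower 12.8% and 40.6%. The AP-1 motif TGANTCA, searched in the same way, was in 4.61% of all windows, 7.36% of those higher and 6.19% of those lower. These shares describe the letters in the windows and were not tested.

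Alb, the main plasma protein, took 11.6% to 15.3% of all reads in tumour libraries and 2.08% to 4.42% in non-tumour libraries. The shares did not overlap, and Alb rose by 2.23 ± 0.29 (adjusted p = 1.40e-08). Of 20 tested genes for secreted hepatocyte proteins 12 rose and 3 fell (median 0.89). Serpina1b, an alpha-1-antitrypsin, rose by 2.57 ± 0.18, from at most 26488 normalised reads in non-tumour liver to at least 86888 in the tumours, and its close copy Serpina1a by 1.67, with reads possibly shared between them. The apolipoprotein Apoa1 rose by 2.40 ± 0.24 and Ambp, precursor of a plasma protease inhibitor, by 1.60 ± 0.14. Apoa2 (−1.33), Apob (−1.01) and Apoe (−0.60), all apolipoproteins, fell. The share of reads from 7 mitochondrially encoded genes ran the other way, with 10.4% to 12.1% in tumours and 22.9% to 32.1% in non-tumour liver. All 7 fell, led by ND4, a subunit of complex I (−1.62 ± 0.18, adjusted p = 3.71e-10), and the whole list had a median of −1.16. The shares of Alb and of the mitochondrial genes moved with the tissue in all 8 libraries, and their part in the other differences was not tested. The median over all genes was −0.01 after quantile normalization, which gives every library the same distribution. It was 0.02 with limma-voom, which used the same size factors. Neither median is therefore a separate check of the scaling.

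Most ERK pathway targets were higher in SKO tumours, and both groups carry the Ptpn11 loss. Of 17 tested, 12 rose and 5 were not called (median 1.01), against 22.1% of all genes that rose. Dusp5, a nuclear phosphatase of ERK, had 132, 77.2, 103 and 194 normalised reads in the tumours and 30.7, 10.4, 8.81 and 3.71 in non-tumour liver. Its rise of 2.13 ± 0.30 (adjusted p = 6.67e-08) had no overlap between the groups. Spred2, an inhibitor of RAS signalling, had 55.2, 78.8, 73.8 and 55.4 against 21.8, 9.34, 13.2 and 3.71 (rise of 1.46 ± 0.19, adjusted p = 1.33e-08), and Spred1 had 128, 124, 144 and 120.0 against 79.3, 41.5, 30.8 and 44.5 (rise of 1.10 ± 0.17). Dusp6, the cytoplasmic ERK phosphatase, had 76.8, 80.3, 47.4 and 77.0 against 41.6, 20.8, 17.6 and 19.3 (rise of 0.99 ± 0.22, adjusted p = 2.02e-04). All 4 tumours lay above all 16 non-tumour SKO libraries from 1 to 8 months for each of these 4 genes. The transcription factor gene Egr1, which ERK induces within minutes, rose by 1.92 ± 0.43, but its lowest tumour value of 121 lay under its highest non-tumour value of 147. The differences of Spry4 (0.51), Etv1 (0.07), Phlda1 (0.49), Epha2 (0.41) and Dusp1 (−0.10) were not called. The count was again 12 of 17 without non-tumour libraries 1 and 2. In WT tumours against WT non-tumour liver 12 of the 17 rose as well (median 0.69), and for no member did the difference between SKO and WT pass the test, with 0.195 for Spred1 as the lowest adjusted p.

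Among 28 tested genes of RAS and SHP2 signalling itself, 5 rose and 8 fell, against 22.1% and 20.1% of all genes. Pebp1, known as Raf kinase inhibitor protein, had 870.0, 616, 992 and 668 normalised reads in the tumours and 2428, 2478, 1831 and 2886 in non-tumour liver. It fell by 1.59 ± 0.18 (adjusted p = 6.13e-10), and no tumour reached the lowest non-tumour value. The adaptor gene Shc1 (0.95 ± 0.14) and the kinase gene Map2k2 (0.77 ± 0.12) rose, and Braf fell (−0.73 ± 0.12). Of 19 immediate early genes 7 rose, led by the antiproliferative gene Btg2 (2.48 ± 0.27, adjusted p = 1.61e-10), and the remaining 12, Fos and Jun among them, were not called.

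**Figure D3:**
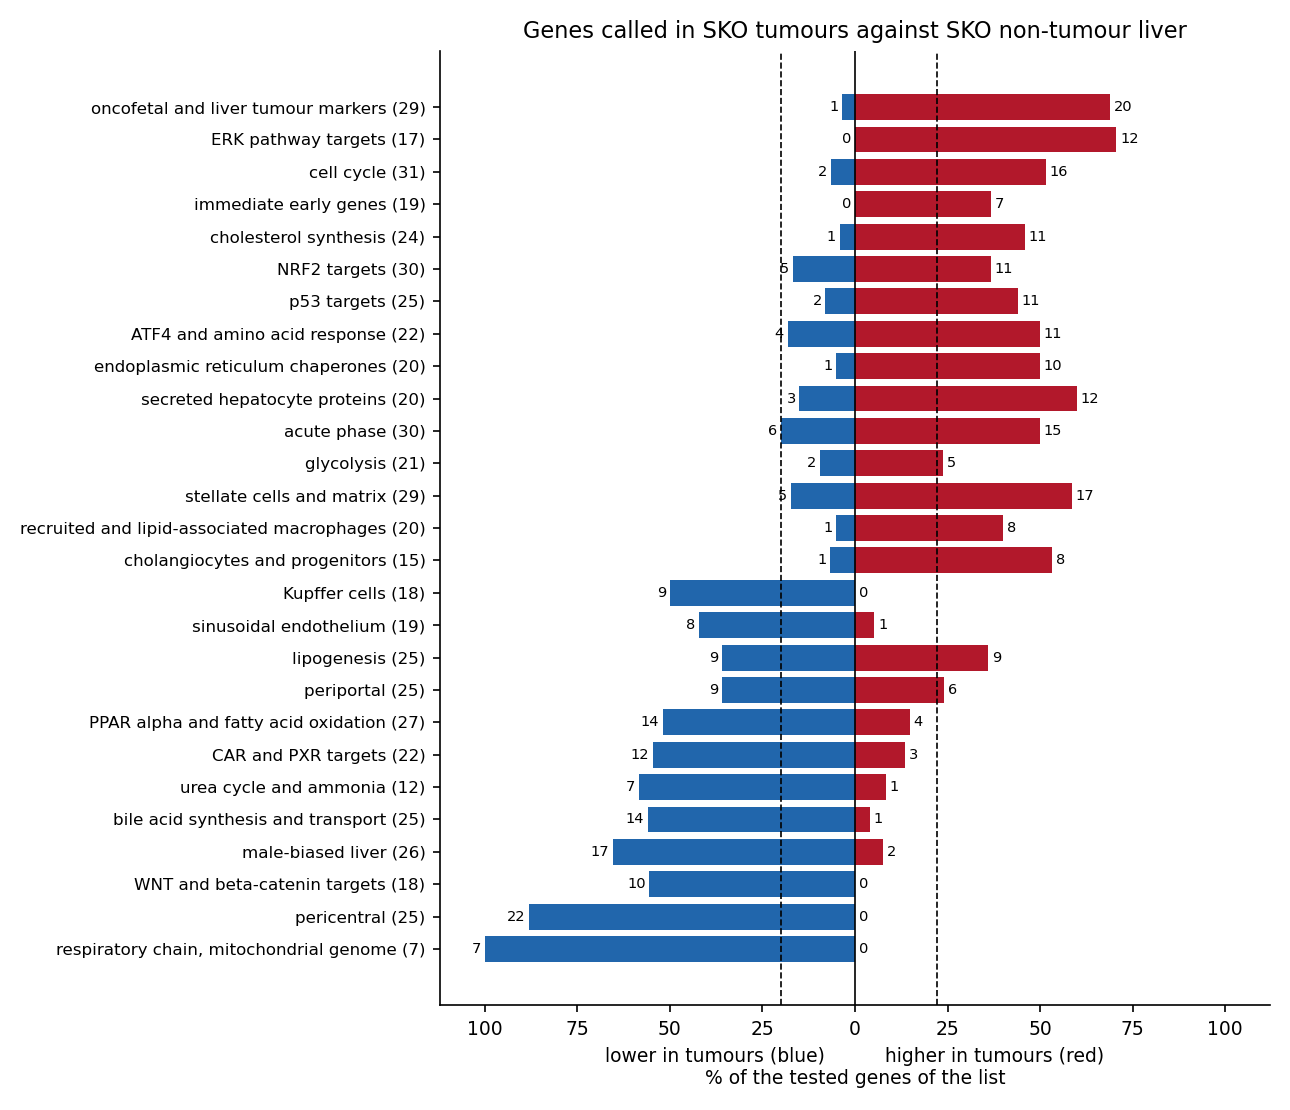
For 27 gene lists, bars give the share of tested genes (number in brackets) that rose (red, right) or fell (blue, left) in SKO tumours against SKO non-tumour liver, with counts at the bar ends. Dashed lines mark the shares over all tested genes, 22.1% higher and 20.1% lower; pericentral genes reach 22 lower of 25, and ERK pathway targets 12 higher of 17.

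Cell cycle genes rose in part. Of 31 tested, 16 rose and 2 fell (median 0.49). Only 9 rises and 2 falls were called without non-tumour libraries 1 and 2. Ccnd1, the cyclin D1 gene that starts the cycle, had 1181, 1161, 758 and 2204 normalised reads in the tumours and 341, 217, 247 and 570.5 in non-tumour liver, without overlap (rise of 1.85 ± 0.31, adjusted p = 1.96e-06). Ccna2, cyclin A2 of the replication phase, had 136, 88.2, 192 and 163 against 27.7, 29.1, 30.8 and 57.9 (rise of 1.48 ± 0.28, adjusted p = 2.00e-05). Mki67, the usual proliferation marker, had only 25.6, 12.6, 27.7 and 21.5 against 7.93, 7.27, 18.7 and 23.7, which overlapped, and was not called (adjusted p = 0.292). Tk1, thymidine kinase, went the other way with 71.4, 47.3, 43.5 and 52.3 against 111, 238, 162 and 99.4 and fell by 1.13 ± 0.20 (adjusted p = 5.76e-06). Of 25 tested p53 targets 11 rose and 2 fell (median 0.41). Cdkn1a, the p21 inhibitor of the cycle, had 263, 424, 808 and 494 against 201, 119, 69.4 and 111 (rise of 1.75 ± 0.41, adjusted p = 4.17e-04), with tumour 3 highest. The pro-apoptotic gene Bax rose by 1.19 ± 0.19, and so did the survival gene Bcl2l1, by 1.05 ± 0.21.

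Genes of hepatocytes around the central vein fell almost as a whole. Of 25 tested, 22 fell (median −2.63), against 20.1% of all genes. Glul, glutamine synthetase, had 2153, 391, 523 and 816 normalised reads in the tumours and 6377, 6230.2, 7969 and 10527 in non-tumour liver. It fell by 3.24 ± 0.31 (adjusted p = 4.36e-12), and tumour 1 kept the highest tumour level. Cyp2e1, the cytochrome that activates DEN, had 2625, 606, 651 and 616 against 4828, 5638, 5429 and 7095 (difference −2.63 ± 0.32, adjusted p = 2.81e-09). Rgn, the calcium-binding protein regucalcin, had 527, 158, 150.2 and 206 against 1908, 2758, 2617 and 2947 and fell by 3.32 ± 0.24. Again tumour 1 was the highest tumour and the groups did not overlap. Car3, a carbonic anhydrase, had 1717, 265, 997 and 483 against 11351, 12661, 13522 and 6973, and Csad, an enzyme of taurine synthesis, 2164, 548, 795 and 505 against 10848, 15452, 10423 and 8707. The differences were −3.91 ± 0.43 for Car3 and −3.69 ± 0.47 for Csad, and both fell. The 3 members not called were Cyp2a5 (0.55), Lect2 (−0.52) and Gstm3 (1.06). WNT and beta-catenin targets overlap with this list, and 10 of 18 fell (median −0.78), among them the transcription factor gene Tbx3 (86.2, 31.5, 64.6 and 64.6 against 330.0, 300.0, 274 and 335) and the stem cell receptor gene Lgr5 (−0.97). Axin2, the common feedback target of WNT signalling, was not called (−0.39). Fewer hepatocytes of a kind and less RNA per hepatocyte cannot be told apart in these bulk samples. Without non-tumour libraries 1 and 2 the pericentral count was 22 lower and 1 higher of 25, and the WNT count 12 lower of 18.

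The neighbouring pericentral genes Cyp2c37 and Cyp2c50 on chromosome 19, cytochromes P450 of the 2C family, fell together. Cyp2c37 had 614, 81.9, 40.8 and 32.3 normalised reads in the tumours and 2011, 2589, 2028 and 1683 in non-tumour liver, a difference of −4.03 ± 0.48 (adjusted p = 1.62e-09). Cyp2c50 had 1143, 135, 153 and 132 against 2759.7, 4421, 3787 and 4614, a difference of −3.82 ± 0.41 (adjusted p = 1.32e-10). In both, tumour 1 held several times the level of the other tumours. The 250 bases upstream of their starts (RefSeq, GRCm38.p6, plus strand) are at chr19:39992174-39992423 and chr19:40089429-40089678, with CCAAT on either strand in capitals.
Cyp2c37: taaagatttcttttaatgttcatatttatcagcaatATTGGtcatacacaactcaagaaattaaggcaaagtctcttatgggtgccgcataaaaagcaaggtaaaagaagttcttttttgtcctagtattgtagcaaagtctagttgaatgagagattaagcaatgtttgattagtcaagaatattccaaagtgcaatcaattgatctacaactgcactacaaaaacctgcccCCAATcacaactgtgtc
Cyp2c50: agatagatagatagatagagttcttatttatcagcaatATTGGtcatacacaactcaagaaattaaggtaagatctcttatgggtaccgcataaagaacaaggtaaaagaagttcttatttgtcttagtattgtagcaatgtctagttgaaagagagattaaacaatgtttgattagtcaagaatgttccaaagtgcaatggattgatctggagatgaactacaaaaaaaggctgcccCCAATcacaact
The windows align over 242 bases, of which 214 are identical (88.4%), and each holds 2 CCAAT boxes. The transcripts are close copies too, so reads of Cyp2c37, Cyp2c50 and Cyp2c54 may be shared in counting.

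Enzymes and transporters of bile acids fell, 14 of 25 tested with 1 rise (median −0.81). Cyp7a1, which sets the pace of bile acid synthesis, had 1562, 236, 253 and 242 normalised reads in the tumours and 9578, 10949, 5532 and 5909.7 in non-tumour liver. It fell by 4.19 ± 0.46 (adjusted p = 1.91e-10), and 3 of the 4 tumours lay within 236 to 253 normalised reads. Cyp8b1, which sets the share of cholic acid, had 1061, 145, 594 and 425 against 5025, 8882, 8549 and 8776 (difference −3.99 ± 0.56, adjusted p = 6.35e-08). The uptake transporter genes Slco1b2 (−3.09) and Slc10a1 (−2.43), the conjugating enzyme gene Baat (−1.64) and the export pump gene Abcb11 (−1.20) fell as well. The sterol exporter gene Abcg8 rose (1.26).

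Male-biased liver genes fell in 17 of 26 tested and rose in 2 (median −1.48). Cyp4a12a, a fatty acid hydroxylase of male liver, had 5769, 739, 5049 and 2919 normalised reads in the tumours and 35639.5, 36096, 101504 and 100529 in non-tumour liver. It fell by 4.40 ± 0.63 (adjusted p = 9.58e-08), the largest fall among called genes whose groups did not overlap, predicted genes left out. Mup3, a major urinary protein, had 1871, 742, 2361 and 2025 against 5369, 9577, 57118 and 27047 (difference −3.36 ± 0.51, adjusted p = 3.44e-07). In both genes non-tumour libraries 1 and 2 were lower than 3 and 4. Reads of Cyp4a12a and Cyp4a12b, and of the Mup genes, may be shared between near-identical copies. The male-biased count became 21 falls and 1 rise without non-tumour libraries 1 and 2 (median −2.28), and 12 falls and 2 rises by limma-voom (median −3.14). Female-biased genes were split, with 5 rises and 5 falls in 15 tested. Cyp4a14, another fatty acid hydroxylase, fell (−4.17 ± 0.85), opposite to Cyp2a4 and Cyp2b9, and its highest tumour value, 359.6 in tumour 1, lay below its lowest non-tumour value of 686.

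The growth hormone and IGF axis moved in both directions, with 5 rises and 6 falls in 18 tested, against 22.1% and 20.1% of all genes. Without non-tumour libraries 1 and 2 the counts were 4 and 5. Ghr, the growth hormone receptor, had 292, 301, 436 and 252 normalised reads in the tumours and 952, 1073, 1628 and 1660.3 in non-tumour liver, a difference of −1.95 ± 0.18 (adjusted p = 6.69e-13). Igf1, the circulating growth factor it induces, had 1702, 1022, 559 and 663 against 4166, 5702, 4851 and 6386, a difference of −2.50 ± 0.25 (adjusted p = 1.21e-11). Neither gene overlapped between the groups. Igfals, which carries IGF1 in plasma, and the feedback inhibitor gene Socs2 fell (−2.12 and −1.23). The binding proteins Igfbp1, described above, and Igfbp2 (1.68) rose.

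Periportal genes and the urea cycle fell less uniformly. Of 25 periportal genes 9 fell and 6 rose (median −0.35), and of 12 genes of the urea cycle and ammonia handling 7 fell and 1 rose (median −0.86). Cps1, the entry enzyme of the urea cycle, had 943, 824, 282 and 359 normalised reads in the tumours and 1339, 1827, 1423 and 2679 in non-tumour liver (difference −1.66 ± 0.23, adjusted p = 5.01e-08). Arg1, its last enzyme, was not called (0.44). The gluconeogenic enzyme gene Pck1 had 3792, 4832, 1186 and 2809 against 10532, 18380.1, 17425 and 15575 (difference −2.42 ± 0.37, adjusted p = 3.37e-07), and Sds, which makes pyruvate from serine, fell by 2.14. Ldha, lactate dehydrogenase A, had 1745, 928, 1697 and 1624 against 395, 415, 298 and 553 (rise of 1.77 ± 0.24, adjusted p = 3.18e-08), while 14 of 21 glycolysis genes were not called. Gys2, liver glycogen synthase, rose by 1.70 ± 0.23.

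Lipid genes divided by pathway. Of 24 genes of cholesterol synthesis 11 rose and 1 fell (median 0.44). Sqle, squalene epoxidase, had 189.9, 191, 369 and 486 normalised reads in the tumours and 43.6, 40.5, 16.5 and 45.3 in non-tumour liver, without overlap (rise of 2.39 ± 0.30, adjusted p = 3.45e-09). Lss rose by 1.84 ± 0.29 and Mvk by 1.19 ± 0.26, both enzymes of the pathway. Of 27 genes of fatty acid oxidation and PPAR alpha 14 fell and 4 rose (median −0.43). The oxidation enzyme genes Hadh (−1.47 ± 0.18) and Acadm (−0.91 ± 0.12) fell, and Cpt1a, the gate of fatty acids into mitochondria, rose (1.15 ± 0.17). Lipogenesis held 9 rises and 9 falls in 25: the desaturase gene Fads2 rose by 2.96 ± 0.29 and malic enzyme Me1 fell by 2.46 ± 0.33. Among lipid droplet genes (6 rises, 9 falls of 23) Plin2 rose by 1.52 and Fitm1, which helps droplets form, fell by 3.54 ± 0.42.

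Stress programmes rose in part. Of 20 endoplasmic reticulum chaperones and regulators 10 rose and 1 fell (median 0.61), led by the co-chaperone Dnajb9 (1.72 ± 0.27) with the disulfide isomerase Pdia6 (1.14 ± 0.20). These counts were 7 and 1 without non-tumour libraries 1 and 2. Of 22 genes of the ATF4 amino acid response 11 rose and 4 fell (median 0.60): the pseudokinase gene Trib3 rose by 2.62 ± 0.35 and Psat1 as above, and Cth, of cysteine synthesis, fell by 1.86 ± 0.24. Asparagine synthetase, Asns, was not called (0.40). Of 30 acute phase genes 15 rose and 6 fell (median 0.46). Hamp, the iron hormone hepcidin, had 26647, 17536, 11736 and 9268 normalised reads in the tumours and 65664, 121874, 249519 and 56751 in non-tumour liver and fell by 2.78 ± 0.41 (adjusted p = 2.26e-07). The fibrinogen chains Fga (1.10), Fgb (1.12) and Fgg (1.05) rose, whereas Saa2, serum amyloid A2, fell (−2.34) and Saa1 (−1.91) was not called.

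Markers of other liver cells moved too, and fewer cells and less RNA per cell again cannot be told apart. Kupffer cell markers, of the resident macrophages, fell in 9 of 18 tested (median −0.80), and their summed level was 4824 to 6093 normalised reads in tumours and 8580 to 9494 in non-tumour liver. Vsig4, a complement receptor of Kupffer cells, had 599, 519.8, 474 and 500.2 in the tumours and 1411, 1762, 1548 and 1139.5 in non-tumour liver (difference −1.43 ± 0.28, adjusted p = 4.39e-05), and Clec4f, their lectin, 471, 224, 379 and 268 against 749, 733, 616 and 687 (difference −1.04 ± 0.29). Markers shared with other macrophages, such as Adgre1 (−0.01) and Csf1r (−0.33), were not called. Of 20 genes of recruited and lipid-associated macrophages 8 rose and 1 fell (median 0.48), with summed levels of 3378 to 4218 in tumours and 2043 to 2824 in non-tumour liver. The lipopolysaccharide receptor gene Cd14 had 88.9, 118, 217 and 55.4 against 25.8, 11.4, 12.1 and 9.64, highest in tumour 3 (rise of 1.87 ± 0.30, adjusted p = 1.59e-06), and Mpeg1, a pore protein of phagocytes, rose by 1.28 ± 0.26. The list also holds Lpl (1.20 ± 0.27) and Spp1 (1.54), which other liver cells can express. No marker in the lists of other cell types that the table holds was at 0 in all 8 libraries, and of 14 listed neutrophil markers 2 were tested.

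Stellate cell and matrix genes rose in 17 of 29 tested and fell in 5 (median 0.69), with summed levels of 10279 to 18817 in tumours and 6888 to 9694 in non-tumour liver. The counts were 14 and 1 without non-tumour libraries 1 and 2. Col1a1, a chain of type I collagen, had 1529, 874, 856 and 3986 normalised reads in the tumours and 410.2, 102, 177 and 389 in non-tumour liver (rise of 2.50 ± 0.48, adjusted p = 2.26e-05), with tumour 4 highest. Col4a1, of basement membranes, had 854, 995, 1202 and 1393 against 448, 391, 269.7 and 350.2 (rise of 1.53 ± 0.24, adjusted p = 5.14e-07). Among the falls were Ecm1 (−0.92), Dcn (−0.88) and the retinol esterase gene Lrat (−0.55), which marks quiescent stellate cells. Sinusoidal endothelial markers fell in 8 of 19 and rose in 1 (median −0.25), with summed levels of 4264 to 5662 and 5771 to 6617. Clec4g, a lectin of these cells, had 446, 419, 282 and 362 against 785, 801, 552 and 1084 (difference −1.02 ± 0.19, adjusted p = 2.32e-05), and the scavenger receptor gene Stab1 rose (0.86 ± 0.13). Of 14 genes of capillary and tumour endothelium 4 rose, against 22.1% of all genes. Among them was Cd34, with 193, 236, 343 and 183 against 152, 88.2, 99.1 and 90.5 (0.98 ± 0.35, adjusted p = 0.0197, or 0.0828 without tumour 3). Each of these 4 calls was lost under at least 1 alternative. Cholangiocyte and progenitor genes rose in 8 of 15, led by Prom1 (2.27 ± 0.28) and the keratin genes Krt8 (1.88 ± 0.26) and Krt23 (2.17 ± 0.36), but Krt19 (−0.24) and Krt7 (0.13), which define bile ducts, were not called. T and NK cell markers had 1 call of 10 and B and plasma cell markers 2 of 12, with the summed B and plasma level at 18087 normalised reads in tumour 3 and at 1573 to 2435 in the other tumours. MHC class II genes had 0 calls of 9 by limma, with 1 at an unadjusted p under 0.05 and 1 called by limma-voom.

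Tumour libraries varied among themselves slightly more than non-tumour libraries. Every tumour library was also shallower, and the part of read depth in this difference was not tested. The median SD of a gene was 0.227 over the 4 tumours and 0.202 over the 4 non-tumour libraries on the log2 scale, and the tumour SD was the larger for 6739 genes (57.0%). Over WT libraries the medians were 0.238 and 0.195. Several NRF2 targets, which defend against oxidants and electrophiles, differed between the tumours. Cbr3, a carbonyl reductase, had 226, 2066, 1217 and 23.1 normalised reads in the tumours, so that tumours 2 and 3 stood far above 1 and 4. The non-tumour libraries held 203, 154, 28.6 and 57.1, and the rise of 1.85 ± 0.60 (adjusted p = 0.0106) missed the threshold without tumour 2 (1.08, adjusted p = 0.144) or without tumour 3 (1.33, adjusted p = 0.0886). Slc7a11, the cystine importer, had 6.73, 178, 365 and 1.54 against 18.8, 8.31, 1.10 and 3.71 and likewise lost its call without tumour 2 or 3. Gstm3, a glutathione transferase, had 1063, 8477, 4364 and 328 against 1527, 1018, 359 and 1185, with tumour 4 below every non-tumour library, and was not called (adjusted p = 0.0800, or 0.000709 without tumour 4). Srxn1, which repairs peroxiredoxins, had 726, 2331, 2115 and 548 against 497, 361, 315 and 298 (rise of 1.65 ± 0.30, adjusted p = 1.18e-05), and Gclc, of glutathione synthesis, 742, 1866, 2019.9 and 379 against 473, 469, 491 and 320.5 (rise of 1.19 ± 0.28). Osgin1 had 2031, 3177, 2453 and 2752 against 682, 509, 404 and 714 (rise of 2.14 ± 0.30) and was even over the tumours. Over the whole list 11 of 30 rose and 5 fell (median 0.38), and Nqo1, the classical target, had 156, 307, 170.0 and 38.5 against 121, 105, 50.6 and 70.5 and was not called (0.61, adjusted p = 0.122), but was called without tumour 4 (1.07, adjusted p = 0.00399). The immunoglobulin light chain gene Igkc stood at 1403, 1865, 14295 and 1033 in the tumours, highest in tumour 3, against 1889.7, 2819, 2188 and 520.0.

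**Figure D4:**
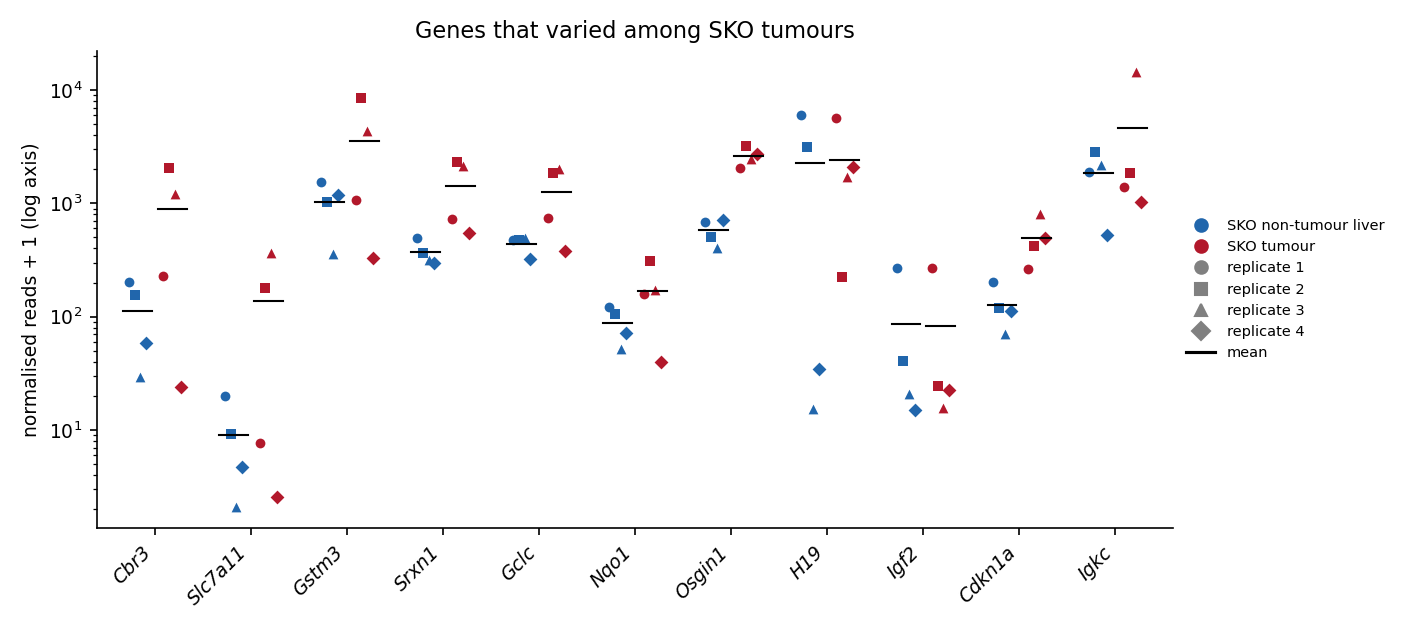
Normalised reads + 1 (log axis) of 11 genes in the 4 non-tumour (blue) and 4 tumour (red) SKO libraries; marker shapes give the replicate number and black bars the mean. Cbr3, Slc7a11, Gstm3, Srxn1 and Gclc are highest in tumours 2 and 3, Igkc in tumour 3, and Igf2 in tumour 1 and non-tumour library 1.

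The tumour effect in SKO mice was set against that in WT and IKO mice, whose libraries are separate. WT tumours differed from WT non-tumour liver in 5211 genes (44.1%) and IKO tumours from IKO non-tumour liver in 4185 (35.4%). SKO and WT shared 3623 called genes, 72.7% of the SKO and 69.5% of the WT calls, and 3615 of them moved the same way. SKO and IKO shared 3240, 65.0% and 77.4%, and 3238 moved the same way. Across genes, which are not independent replicates, the effects of SKO correlated with those of WT at 0.872 and with those of IKO at 0.867 (Pearson). The difference of tumour effects was called in 4 genes for SKO against WT (0.0338%), 2 in each direction (0.0169%). For SKO against IKO it was called in 18 genes (0.152%), of which 16 were more negative (0.135%) and 2 more positive (0.0169%) in SKO. These calls depend on the fit: limma-voom on the recovered reads called 0 genes against WT (1311 at an unadjusted p under 0.05) and 15 against IKO. A fit of only the groups compared called 1 gene against WT, more negative in SKO, and 0 against IKO (977 unadjusted). A replicate block, which takes same-numbered libraries as pairs, called 0 against WT (1236 unadjusted) and 0 against IKO (1122 unadjusted). The labels do not state such pairs.

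**Figure D5:**
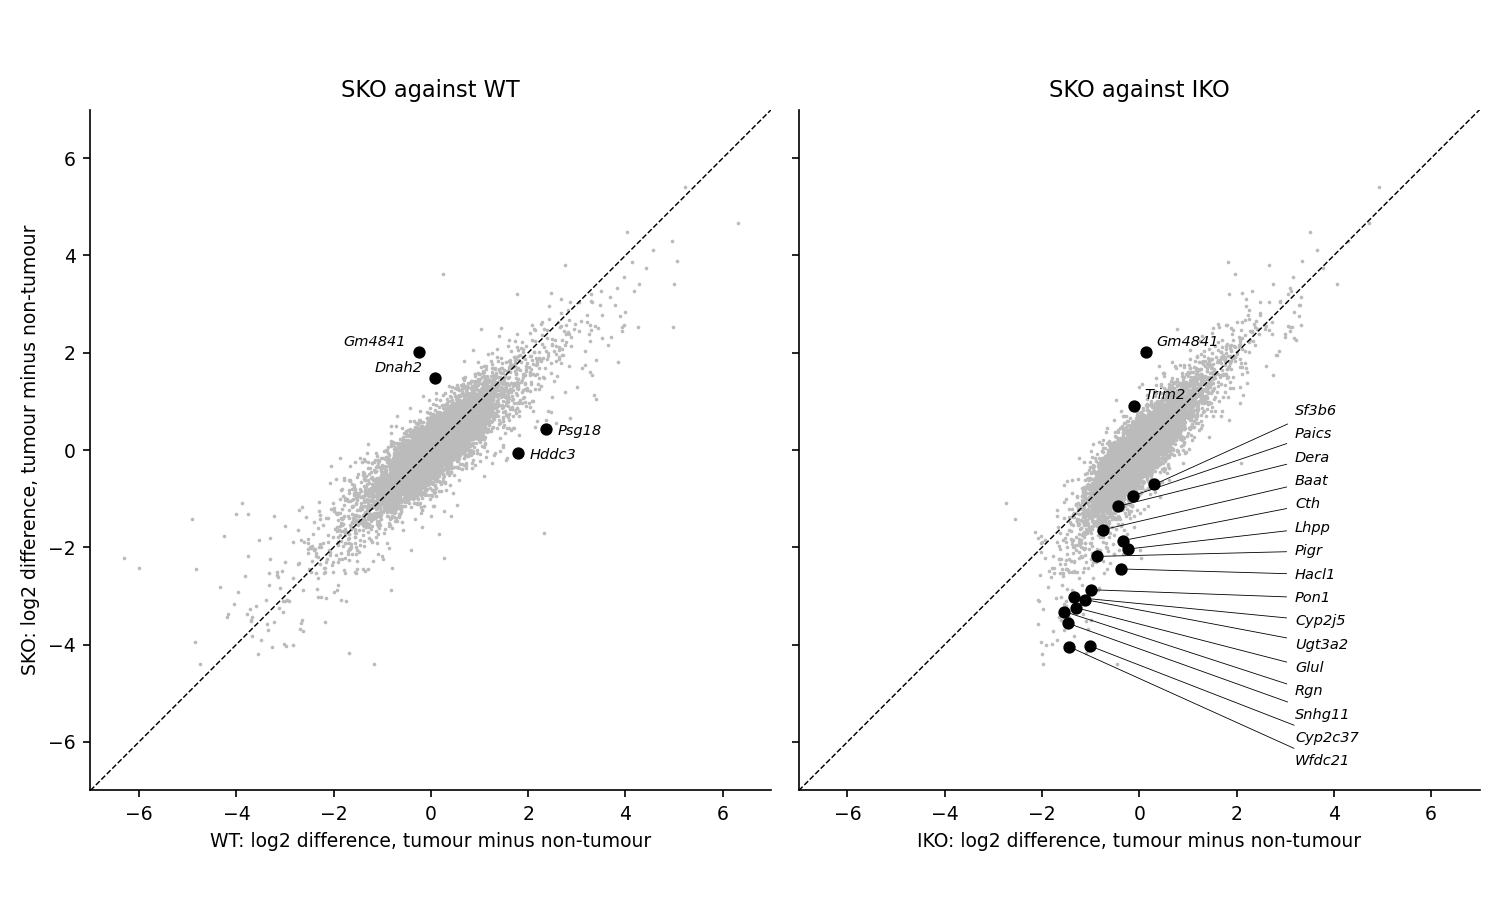
Each grey point is 1 of 11828 genes, with the log2 difference of tumour minus non-tumour in SKO on the y axis and that in WT (left) or IKO (right) on the x axis; the dashed line marks equal effects. Black points are the 4 and 18 genes whose effects differed between the genotypes, and 16 of the 18 lie below the line.

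Gm4841, a predicted gene of the interferon-inducible GTPase family, differed from both in the fit over the whole sequencing group. It had 242, 689.9, 1202 and 1051 normalised reads in SKO tumours and 179, 136, 212 and 93.5 in SKO non-tumour liver, and it rose by 2.01 ± 0.29 (adjusted p = 1.77e-07). WT libraries at 8 months held at most 2.44 and IKO libraries at most 6.31, near the floor of the scale, where differences are compressed. The tumour effect exceeded that in WT by 2.26 ± 0.42 (adjusted p = 0.00969) and that in IKO by 1.88 ± 0.42 (adjusted p = 0.0334). Dnah2, a dynein heavy chain of cilia, had 31.0, 41.0, 60.6 and 67.7 in SKO tumours and 9.91, 8.31, 4.40 and 2.23 in SKO non-tumour liver, and at most 2.41 in WT. It rose by 1.48 ± 0.19, more than in WT by 1.40 ± 0.27 (adjusted p = 0.0167), and more than in IKO by 1.13 ± 0.27, which was not called (adjusted p = 0.0597). In all 4 SKO tumours both genes lay above all 16 non-tumour SKO libraries from 1 to 8 months. The other two genes that differed from WT were low in SKO. Psg18, of a glycoprotein family of placenta, had 0, 3.15, 7.91 and 0 in SKO tumours and 16.9 to 243.9 in WT tumours. Hddc3, a phosphohydrolase, had 6.73, 9.45, 7.91 and 9.23 in SKO tumours and 59.1 to 122.7 in WT tumours. The differences were −1.93 ± 0.38 (adjusted p = 0.0167) and −1.84 ± 0.34 (adjusted p = 0.00969), and neither gene was called between SKO tumour and non-tumour liver. The tumour effect of Psg18 was 0.43 in SKO, 2.36 in WT and 0.73 in IKO. Both genes had few reads in SKO tumours, where the scale compresses differences.

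Against IKO, several genes of mature hepatocytes fell further in SKO tumours in the same fit. None of these calls was made when only the groups compared were fitted. The median tumour effect over the 25 tested pericentral genes was −2.63 in SKO, −2.68 in WT and −1.06 in IKO. The difference of effects was called for 0 of them against WT and for 3 against IKO. Glul averaged 971 ± 808 normalised reads (SD, n = 4) in SKO tumours, 3241 ± 1067 in IKO tumours and 7803 ± 904 in IKO non-tumour liver. Its tumour effect differed from that in IKO by −1.93 ± 0.44 (adjusted p = 0.0404), and that of Rgn by −1.78 ± 0.34 (adjusted p = 0.0111). Wfdc21, a protease inhibitor homologue, had 407, 59.9, 105 and 90.8 in SKO tumours against 2304, 2918, 2487 and 2484 in SKO non-tumour liver. IKO tumours held 604 to 1337, above the highest SKO tumour, and the effects differed by −2.61 ± 0.45 (adjusted p = 0.00397). Cyp2c37 differed by −3.02 ± 0.68 (adjusted p = 0.0401), Hacl1, of branched fatty acid breakdown, by −2.07 ± 0.38 (adjusted p = 0.00720) and Baat by −0.89 ± 0.20 (adjusted p = 0.0334). Snhg11, a noncoding host gene of small RNAs, differed by −2.09 ± 0.43 (adjusted p = 0.0165). Its SKO non-tumour libraries held 510.3, 675, 466 and 376, above the 143.7 to 169.5 of IKO and the 145.9 to 172.9 of WT. Trim2, a ubiquitin ligase, was the other gene with a larger rise in SKO, with 57.9, 75.6, 83.0 and 80.0 against 44.6, 23.9, 26.4 and 22.3, a difference from IKO of 1.02 ± 0.20 (adjusted p = 0.0125). Leaving out any 1 of the 8 SKO libraries kept the call of Wfdc21 and Hacl1 in all 8 fits, of Rgn in 7, and of Glul and Cyp2c37 in 2. Against WT the calls of Gm4841, Dnah2 and Hddc3 held in all 8 fits and that of Psg18 in 7. The number of calls in these fits ran from 2 to 76 against IKO and from 4 to 49 against WT. Without non-tumour libraries 1 and 2 there were 36 calls against IKO, with Glul at −2.20 (adjusted p = 0.0314) and Wfdc21 at −2.58 (adjusted p = 0.0103). The same fit left Dnah2 as the only call against WT (1.62, adjusted p = 0.0275), and Gm4841 stood at 2.32 (adjusted p = 0.0607).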

How the data were processed

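Bulk liver RNA was measured with MAPS, per the labels' protocols, a method known to count the polyadenylated 3′ ends of transcripts. Per the submitters' processing notes, the authors used STAR 2.7.10a, HTSeq 2.0.2 and DESeq2 1.32.0 with the mouse build GRCm38 (mm10), and the deposited table holds log2-scale values. The values have a floor of 3.8289 and have the form of a variance stabilising transform. Undoing it gave normalised reads, and dividing out each library's smallest step gave whole reads for 100.0% of values up to 2000 reads (within 0.05). Library totals were 4676444 to 10863046 in the 60 libraries of sequencing group 1, and no pair of the 8 SKO libraries looked like copies (lowest chi-square per gene 20.852 over 28 pairs). Of 12966 genes, 1138 under a mean of 5 normalised reads were removed, and 4 symbols were repeated. limma 3.58.1 (R 4.3.3) was fitted to the deposited log2 values with 1 mean per group over the 60 libraries, a mean-variance trend and Benjamini-Hochberg adjustment over 11828 genes, called at 0.05. On data simulated for the tumour against non-tumour contrast over these genes, 200 changed genes were recovered at 47.0% (1.5-fold), 90.5% (2-fold) and 99.0% (4-fold).

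The members and gene lists were chosen with earlier results of these data known. Named genes are the 15 largest rises and falls, up to 4 per list and up to 6 in each direction per difference between genotypes. Others were chosen after their values were seen. Alternatives were other filters, scalings, weights, limma-voom on the recovered reads, only the groups compared, a replicate block, a stricter threshold and leaving out libraries. Leaving out non-tumour libraries 1 and 2, alone or with tumour 1, was chosen after seeing the data. Positions are from the GENCODE annotation of GRCm38, matched for 12687 symbols, and promoter sequences are from RefSeq (GRCm38.p6). A few genes of the lists are counted but not reported here by name.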

Additional observations from a re-analysis of the deposited data

Results flagged for a closer look

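Single libraries stood apart from the other 3 of their group for 13 gene and group combinations, by Dixon's criterion at 95%. Chance meets this criterion in about 1 of 20 groups, and many genes were examined. Whether 13 is more than chance gives was not tested, so the combinations are listed as description only. Tumour 1 was the high library for Igf2 (269 normalised reads), Cyp7a1 (1560), Cyp4a14 (360), Cyp2c50 (1140), Cyp2e1 (2620) and Hacl1 (249). Tumour 3 was the low library for Dusp6 (47.4) and tumour 2 for Ldha (928). Non-tumour library 1 was the high library for Dusp6 (41.6) and the low one for Cyp8b1 (5020). Non-tumour library 4 was the high library for Ccna2 (57.9) and the low one for Gclc (320), and library 3 was the low one for Sqle (16.5). Tumour 1 also had the most reads of genes that fell in WT tumours, and the part of that in these values was not tested.

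The tumour effect differed from that in WT, by limma's test of the difference, for Psg18 (-1.93), Hddc3 (-1.84), Dnah2 (1.4) and Gm4841 (2.26). It differed from that in IKO for Cyp2c37 (-3.02), Wfdc21 (-2.61), Snhg11 (-2.09), Hacl1 (-2.07), Ugt3a2 (-1.95), Glul (-1.93), Rgn (-1.78), Cth (-1.52), Pigr (-1.32), Baat (-0.892), Trim2 (1.02) and Gm4841 (1.88). Against WT, limma-voom called 0 genes and a fit of only the groups compared 1, and the latter called 0 against IKO. With a replicate block there were 0 calls against WT and 0 against IKO. Ugt3a2 encodes a glycosyltransferase and Pigr the receptor that carries immunoglobulin A into bile.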

How the results depend on the processing

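The count of 4983 genes called between SKO tumours and non-tumour liver ran from 3671 to 5206 over the alternative filters, scalings, weights, fits and thresholds and from 4275 to 4851 when 1 library was left out, and asking for at least 2-fold left 1238. Without non-tumour libraries 1 and 2 there were 4006 calls, and without tumour 1 as well 3797. Of 213 genes followed individually, 18 changed their call under at least 1 alternative and 0 reversed. Differences between genotypes moved far more. Against WT (4 calls) there was 1 with the stricter filter, 34 with quantile normalization, 16 without the trend, 79 with library weights, 0 with limma-voom (1311 at an unadjusted p under 0.05), 1 with only the groups compared, 1 without non-tumour libraries 1 and 2, 2 without tumour 1 as well, and 2 at an adjusted p under 0.01. Against IKO (18 calls) there were 37 with quantile normalization, 65 with library weights, 0 with only the groups compared (977 unadjusted), 36 without non-tumour libraries 1 and 2, 63 without tumour 1 as well, and 2 at 0.01. Leaving out 1 SKO library gave 4 to 49 and 2 to 76. The replicate block gave 4591 calls for the main comparison, 0 against WT (1236 unadjusted) and 0 against IKO (1122 unadjusted). The labels do not say that a number marks a shared animal, and the numbers were taken to pair the libraries only if every pair correlated above 0.1. Deviations of same-numbered libraries correlated at 0.009, 0.144, 0.143 and 0.157, so 1 pair missed that value. Tumours 2 to 4, but not tumour 1, correlated best with their own number, a hint of pairing from the data and not from the design. The cause of these changes was not tested. For the tumour against non-tumour contrast, simulated 1.5-fold changes were found in 47.0% of cases, so small differences can be missed. The simulation changed 200 genes, against 4983 called in the data, so its recovery need not hold for the real comparison. It modelled neither read depth nor the differences between genotypes.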

Other observations

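Transcription factors of the hepatocyte moved unevenly in SKO tumours: of 26 tested, 8 fell and 3 rose, against 20.1% and 22.1% of all genes. Without non-tumour libraries 1 and 2 the counts were 5 and 3. The nuclear receptor genes Nr1i3 (−1.51), the constitutive androstane receptor, and Nr1h4 (−0.87), the bile acid receptor FXR, fell, as did Nr2f2 (−1.35) and Prox1 (−0.66). Hnf4a (0.06), Foxa2 (0.02) and Ppara (−0.19) were not called. Of 22 targets of the receptors CAR and PXR 12 fell and 3 rose, with the oxidase Cyp3a11 (−1.65) and the glucuronosyltransferase Ugt1a1 (−1.45) falling and Cyp2b9 and Cyp2b13 (1.83) rising. Complement and coagulation genes held 13 falls and 6 rises of 33: C9 (−2.50), of the membrane attack complex, and the lectin Mbl1 (−2.51) fell, and Kng2 (2.47), a kininogen, and the clotting factor gene F11 (1.40) rose.

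Among 30 growth factors and receptors 6 rose and 6 fell, near the 22.1% and 20.1% of all genes. Fgfr2 (1.28), a fibroblast growth factor receptor, the EGF family ligand Hbegf (1.01) and Tgfb2 (1.11) rose, and Egfr (−0.69) and the fibroblast growth factor gene Fgf1 (−0.88) fell. Without non-tumour libraries 1 and 2 the counts were 5 and 2. Interferon-stimulated genes had 3 rises and 1 fall of 27, below the shares over all genes, whereas 7 of 20 NF-kB targets rose, among them Tnfaip2 (1.31) and the chemokine Cxcl10 (1.12), and Sod2 fell (−1.10). MHC class I and its peptide supply held 8 rises and 4 falls of 17, with H2-Q7 at 1.57, the peptide transporter Tap1 at 1.16 and H2-K1 at −0.93, and the H2 genes may share reads. These counts were 4 and 3 without non-tumour libraries 1 and 2. Of 14 imprinted genes 4 rose and 2 fell, against 22.1% and 20.1% of all genes. Among the rises was Grb10 (0.71), an adaptor that restrains insulin signalling.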
